A study of Mus musculus with 48 samples.

Results

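The protein kinase C family was followed in isolated mouse cardiomyocytes, with the theta isoform Prkcq in the lead. The members were taken by name as rows of the deposited count table: Prkca, Prkcb, Prkcd, Prkce, Prkch, Prkci, Prkcq, Prkcz and Prkd1, which are 9 of the 30743 genes listed. Prkcq was chosen by its log2 CPM in these same C3Hn-C57mt and C3H_WT libraries, where it differed, so that difference is described here without a test. All 9 passed the filter on low counts in both sets of libraries described below.

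Protein kinases C are serine and threonine kinases that pass on signals from receptors coupled to phospholipase C, among them the angiotensin, endothelin and alpha-1 adrenergic receptors of the heart. The conventional isoforms (here Prkca and Prkcb) need calcium and diacylglycerol, the new isoforms (Prkcd, Prkce, Prkch and Prkcq) need diacylglycerol without calcium, and the atypical isoforms (Prkci and Prkcz) need neither. Prkd1 encodes protein kinase D, formerly counted as the mu isoform, which the other isoforms activate. In heart muscle the alpha isoform is known for lowering contractility and the epsilon isoform for its part in protection from ischaemia, while the theta isoform is best known from T cells and skeletal muscle.

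The mice were mitochondrial-nuclear exchange (MNX) animals, which carry the nuclear genome of one inbred strain and the mitochondrial genome of another, and their wild-type strains C57BL/6J (C57) and C3H/HeN (C3H). Messenger RNA of left ventricular cardiomyocytes was sequenced in 48 libraries, which fall into 2 sets of 24. In set B the titles carry no surgery word and the treatment tag reads sham on day 3, with 6 libraries each of C3Hn-C57mt (C3H nucleus, C57 mitochondria), C3H_WT, C57n-C3Hmt (C57 nucleus, C3H mitochondria) and C57_WT. In set A the titles carry the surgery, with 3 ACF and 3 sham libraries each of C3H_MNX, C3H_wt, C57_MNX and C57_wt, also on day 3. ACF is the volume overload surgery of the series, an abbreviation that commonly stands for aortocaval fistula. The genotype tags of the set A exchange libraries go against their titles: C3H_MNX libraries are tagged as C57 nucleus with C3H mitochondria, and C57_MNX libraries as C3H nucleus with C57 mitochondria. The sources used here give neither ages nor a statement that each library is a separate animal. The p-values therefore speak only of library-to-library spread, which may be technical.

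Libraries of set A held 15.89 to 20.77 M (mega) counts and those of set B 15.97 to 26.09 M. Kcnj14, a gene that separates the 2 nuclear backgrounds in set B, held 6.61 to 7.23 on the log2 scale of counts scaled to library size (log2 CPM) in the C3Hn-C57mt and C3H_WT libraries and 0.15 to 1.35 in the C57n-C3Hmt and C57_WT libraries. In set A its group means were 5.19 to 5.57 log2 CPM in the 4 groups with C3H at the head of the title and -1.77 to -0.41 in the 4 groups with C57 there, so the groups are called by their titles. The 10 cardiomyocyte markers were present in all groups, with summed levels of 60500 to 79500 CPM in set B and of 37200 to 71100 CPM in 23 of the set A libraries. The exception was C57_wt ACF replicate 489, with 9450 CPM of cardiomyocyte markers. Its 6 listed erythrocyte markers summed to 69600 CPM, against 9.00 to 313 CPM in the other libraries of set A, and its macrophage markers to 366 CPM, against 45.0 to 197 CPM. Results that rest on this library are given with and without it. Of the other set A libraries, the lowest cardiomyocyte sum, 37200 CPM, and the highest macrophage sum, 197 CPM, were both in the C3H_MNX ACF group. In such bulk samples, fewer cells of a type and less RNA per cell cannot be told apart.

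How well the isoforms can be separated by sequencing was looked at in their coding sequences. Prkcq itself lies on chromosome 2 (11172108 to 11301222, plus strand, GRCm38). Each kinase domain holds a short stretch around the DFG motif, whose aspartate binds magnesium at the active site, and the longest run that Prkcq shares with any other member falls there. The stretches below, shown for 8 of the members, are coding DNA of the annotated mouse transcripts (GENCODE M21, build GRCm38), each of 39 bases, 5′ to 3′, with the 3 codons at the place of that motif in capitals.

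Prkcq: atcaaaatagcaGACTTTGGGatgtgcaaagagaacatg
Prkcd: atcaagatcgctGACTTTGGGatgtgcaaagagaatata
Prkca: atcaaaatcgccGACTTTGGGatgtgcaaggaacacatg
Prkce: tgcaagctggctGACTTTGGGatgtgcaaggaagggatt
Prkch: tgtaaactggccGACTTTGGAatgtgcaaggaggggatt
Prkci: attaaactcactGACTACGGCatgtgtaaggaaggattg
Prkcz: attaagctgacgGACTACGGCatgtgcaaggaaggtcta
Prkd1: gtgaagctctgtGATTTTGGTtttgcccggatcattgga

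Over these 39 bases Prkcq is identical to Prkcd and to Prkca at 34 positions, to Prkce and Prkch at 27, to Prkci at 24, to Prkcz at 23 and to Prkd1 at 14. Its longest run shared with Prkcd is 23 bases. The longest run shared by any pair of members is 38 bases, between Prkca and Prkcb, starting at coding position 139 of both. None of the 36 pairs of members shares a window of 50 bases in its annotated transcripts.

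The members differed in how often their deposited expected counts were not whole numbers, as happens when RSEM divides a read among more than one place. Prkcq was not whole in 46 of the 48 libraries, a frequency reached by 7.9% of the 12927 genes with a mean count of at least 10. Prkca was not whole in 24 libraries, Prkce in 16, Prkch in 14, Prkci in 10, Prkcz in 3, Prkd1 in 2, and Prkcb and Prkcd in 1 each. No other row completed the Prkcq count to a whole number, within 0.011, in more than 6 libraries, so no single partner was found, and how many of its reads were divided is not given by the table.

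Per coding length, Prkca and Prkce were the most abundant isoforms. Reads also come from untranslated sequence, so this scale raises members whose transcripts are mostly untranslated. The Prkca transcript has 8409 bases with 2016 coding, and that of Prkch 3545 with 2049 coding. The order per transcript length is not given here and may differ. Per kilobase of coding sequence and over the 24 libraries of set B, Prkca stood at 3.84 ± 0.219 log2 CPM per coding kb and Prkce at 3.63 ± 0.608 (SD). Prkci, at 2.50 ± 0.193, and Prkch, at 2.42 ± 0.353, came next. Prkcq stood at 1.73 ± 0.447, Prkcd at 1.47 ± 0.251, Prkcz at 1.27 ± 0.478 and Prkd1 at 0.86 ± 0.23. Prkcb was the lowest at -1.09 ± 0.533, with 8 to 44 counts per library. This order pools groups that differ. In C57_WT, Prkce stood at 4.12 ± 0.286 and above Prkca at 3.70 ± 0.356, and in C57n-C3Hmt Prkce stood at 4.29 ± 0.116 and Prkca at 3.80 ± 0.0985 (SD, n = 6 each). Prkcq came next after Prkci in C3Hn-C57mt, at 2.32 ± 0.146, and below Prkcz and Prkcd in C3H_WT, at 1.31 ± 0.401. Neighbours in the pooled order differed by less than the larger of their SDs, except at 3 places: between Prkce and Prkci, between Prkch and Prkcq, and between Prkd1 and Prkcb. In set A, with libraries normalised apart, the order was the same but for Prkcd, at 1.27 ± 0.472, and Prkcq, at 0.91 ± 0.318, which changed places within their SD.

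**Figure D1:**
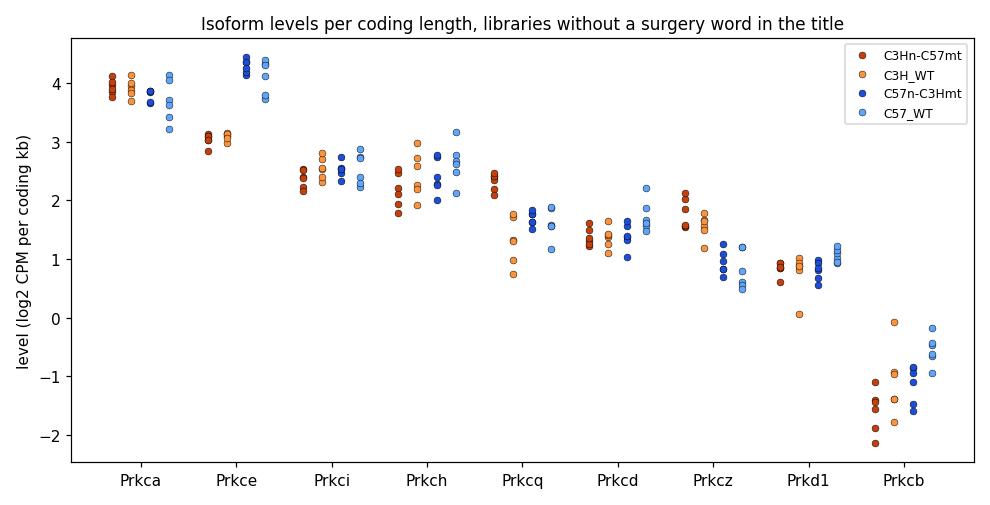
Levels of the 9 members per coding length (log2 CPM per coding kb, vertical axis) in the 24 libraries of set B. Each point is a library and colours mark the 4 groups; the Prkce points of the C3H-nucleus groups lie below those of the C57-nucleus groups, and the Prkcq points of C3Hn-C57mt lie above those of C3H_WT.

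In set B Prkcq was highest where the C3H nucleus met C57 mitochondria. The 6 C3Hn-C57mt libraries held 3.18 to 3.56 log2 CPM (median 3.46), against 1.83 to 2.86 (median 2.41) in the 6 C3H_WT libraries. Every C3Hn-C57mt library lay above every C3H_WT library. The group means were 3.41 ± 0.147 in C3Hn-C57mt and 2.40 ± 0.400 log2 CPM in C3H_WT (SD, n = 6 each), and the deposited counts were 189.71 to 340 in C3Hn-C57mt and 70.08 to 199.97 in C3H_WT. The log2 fold change was 0.98 (SE 0.142), a 1.97-fold higher level in C3Hn-C57mt. Of the 13395 genes tested in set B, 0.440% did not overlap between these 2 groups. Since this contrast chose Prkcq, nothing is read from that share.

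On the C57 nucleus the exchange of mitochondria left no difference past the threshold. There, Prkcq held 2.59 to 2.92 log2 CPM (median 2.78) in the 6 C57n-C3Hmt libraries and 2.26 to 2.98 (median 2.65) in the 6 C57_WT libraries. These ranges overlapped, and the log2 fold change was 0.07 (SE 0.144; edgeR gave an adjusted p of 0.868). The difference between the 2 exchange effects, C3H nucleus minus C57 nucleus, was 0.90 on the log2 scale (SE 0.202), again a description. All 6 C3Hn-C57mt libraries also lay above all C57_WT libraries, with a log2 fold change of 0.71 (SE 0.141). C3H_WT stood 0.34 below C57n-C3Hmt (log2 fold change -0.34, SE 0.145) and 0.26 below C57_WT (log2 fold change -0.26, SE 0.145), and both of these pairs overlapped.

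**Figure D2:**
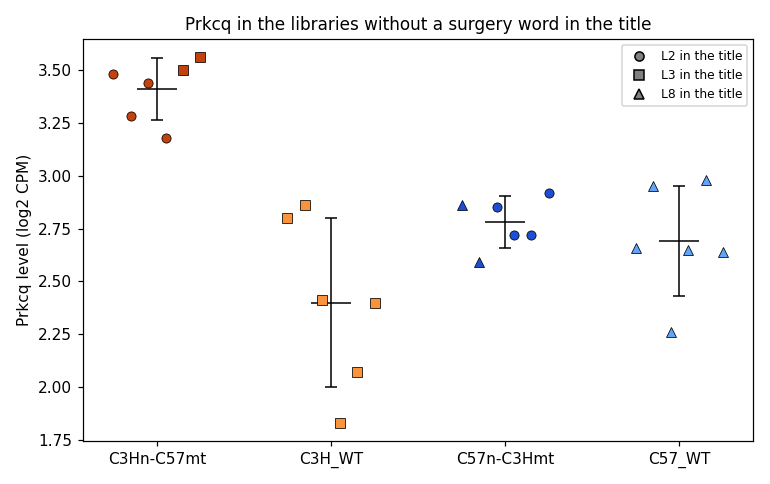
Prkcq level (log2 CPM, vertical axis) in each library of set B by group, with the mean and SD as a bar and the L code of the title as the marker shape. The 6 C3Hn-C57mt libraries sit between 3.18 and 3.56, above the 1.83 to 2.86 of C3H_WT, and the 2 groups with the C57 nucleus overlap.

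The titles of set B carry a code of L and a digit whose meaning the labels do not state, and it divides the groups unevenly. Among C3Hn-C57mt libraries, 4 are marked L2 and 2 are marked L3, and all 6 C3H_WT libraries are marked L3. All 6 C57_WT libraries are marked L8, and of C57n-C3Hmt 4 are marked L2 and 2 are marked L8. C3H_WT thus shares no code with C57_WT or C57n-C3Hmt, and C3Hn-C57mt shares none with C57_WT. In these comparisons group and code cannot be told apart, and a fit with the code as a covariate links them only through the other groups. The L2 libraries of C3Hn-C57mt held 3.18 to 3.48 and its L3 libraries 3.50 to 3.56 log2 CPM of Prkcq. Within L3 alone the log2 fold change of C3Hn-C57mt over C3H_WT was 1.09, and with the code as a covariate it was 1.10. Leaving out each of the 12 libraries in turn gave 0.88 to 1.08. These refits reuse the values that chose Prkcq and are a description.

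Markers of the cells best known for this isoform were low and did not run higher in C3Hn-C57mt. The 11 T cell markers, all 11 detected, summed to 4.05 to 4.94 CPM in C3Hn-C57mt and 4.36 to 5.39 CPM in C3H_WT. The 10 skeletal muscle markers summed to 1.23 to 2.51 CPM in C3Hn-C57mt and 1.14 to 5.66 CPM in C3H_WT. The 6 platelet markers, of which Gp6 was at 0 in all C3Hn-C57mt libraries, summed to 1.12 to 2.50 CPM there and 1.19 to 3.37 CPM in C3H_WT. Endothelial markers summed to 364 to 540 CPM in C3Hn-C57mt and 413 to 792 CPM in C3H_WT, macrophage markers to 43.8 to 94.4 CPM in C3Hn-C57mt and 60.5 to 213 CPM in C3H_WT, and fibroblast markers to 168 to 301 CPM in C3Hn-C57mt and 224 to 764 CPM in C3H_WT. Other lists had the higher median in C3Hn-C57mt. These were cardiomyocyte markers (74900 against 69900 CPM in C3H_WT), B cell markers (0.835 against 0.667 CPM) and neutrophil markers (0.795 against 0.779 CPM). The part of any of these cell types in the Prkcq difference was not tested. The ranges of every one of these lists overlapped between C3Hn-C57mt and C3H_WT.

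For the other members the libraries of C3Hn-C57mt and C3H_WT overlapped, while 0.440% of the 13395 genes tested did not overlap. With so small a share apart, nothing is read from the overlap of the other members. The log2 fold changes of these 8 members ran from -0.64 for Prkcb (SE 0.264) to 0.24 for Prkcz (SE 0.143). Prkca, the calcium-dependent isoform most abundant here, differed by 0.02 (SE 0.116) and Prkce by -0.05 (SE 0.0976).

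Between C57n-C3Hmt and C57_WT, the exchange on the other nucleus, 0 of the 9 members passed the threshold of 0.05. The edgeR quasi-likelihood test with Benjamini-Hochberg adjustment called 0% of the 13395 genes there, while 3 members had an unadjusted p under 0.05, as did 11.3% of all genes, and DESeq2 called 14 genes over the whole table. Those 3 members were Prkcb (log2 fold change -0.62, SE 0.256), Prkcd (-0.36, SE 0.127) and Prkd1 (-0.27, SE 0.123), chosen here after their values were seen. Their libraries overlapped between the 2 groups, and their edgeR adjusted p-values were 0.367, 0.307 and 0.415.

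The set A libraries, which the choice of Prkcq did not use, hold a second exchange with C3H at the head of the title, C3H_MNX, whose genotype tag is that of C57n-C3Hmt. The C3H_MNX ACF libraries held 2.40, 2.21 and 1.91 log2 CPM of Prkcq and the C3H_wt ACF libraries 1.52, 2.09 and 2.17. The C3H_MNX sham libraries held 2.10, 2.31 and 2.01 and the C3H_wt sham libraries 2.31, 2.32 and 2.29. The exchange and wild-type libraries overlapped in both surgeries. Over both surgeries the log2 fold change of C3H_MNX over C3H_wt was 0.04 (SE 0.156; edgeR gave an adjusted p of 1.00). It was -0.17 (SE 0.220, adjusted p = 1.00) in sham and 0.24 (SE 0.222, adjusted p = 0.939) in ACF by the same test. The sets were normalised and tested apart, and the difference between the 0.98 of set B and the 0.04 of set A was not tested.

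With C57 at the head of the title, the C57_MNX ACF libraries held 1.95, 2.07 and 2.38 log2 CPM of Prkcq and the C57_wt ACF libraries 1.45, 2.40 and 1.77, where 2.40 was replicate 489. The C57_MNX sham libraries held 1.88, 1.75 and 1.90 and the C57_wt sham libraries 1.52, 1.35 and 1.76. The groups overlapped in both surgeries, in sham only at 1.75 against 1.76 and in ACF only through replicate 489. The log2 fold change of C57_MNX over C57_wt was 0.27 (SE 0.161; edgeR gave an adjusted p of 1.00) with replicate 489 and 0.42 (SE 0.144, adjusted p = 0.262) without it. In ACF alone the log2 fold change was 0.23 (SE 0.225; edgeR gave an adjusted p of 0.793), or 0.53 (SE 0.213, adjusted p = 0.747) without replicate 489. None of the 9 members passed in either exchange comparison of set A. The edgeR test called 0.0223% of the 13440 genes between C3H_MNX and C3H_wt (3 genes) and 0% between C57_MNX and C57_wt. With replicate 489 included, no member had an unadjusted p under 0.05 in either, beside 3.12% and 4.11% of all genes. DESeq2 called 13 genes in the first and 0 in the second.

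**Figure D3:**
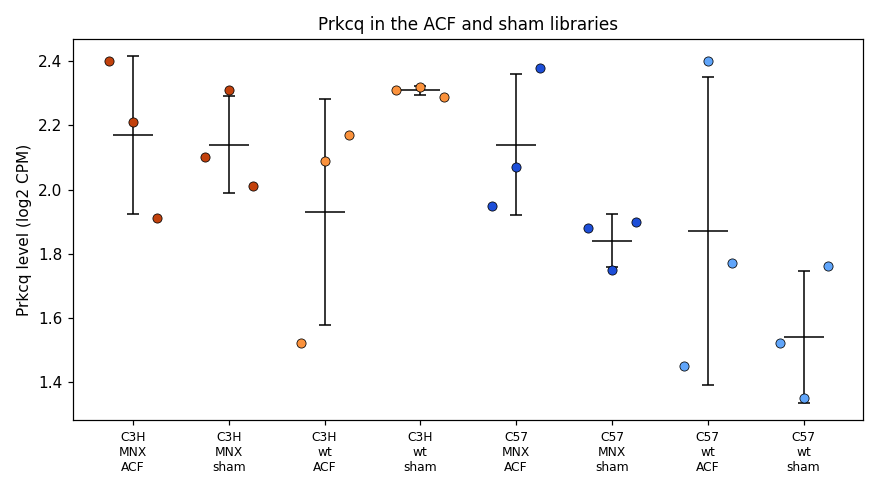
Prkcq level (log2 CPM, vertical axis) in each ACF and sham library of set A by title group, with the mean and SD as a bar. The C3H_wt sham libraries sit at 2.29 to 2.32, above the C57_wt sham libraries at 1.35 to 1.76, and the highest C57_wt ACF point is replicate 489 at 2.40.

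Between the wild-type strains of set A, whether Prkcq passed the threshold depended on replicate 489 and on the tool. The 3 C3H_wt sham libraries all lay above the 3 C57_wt sham libraries, with a log2 fold change of 0.78 (SE 0.225; edgeR gave an adjusted p of 0.0639), while DESeq2 gave an adjusted p of 0.0278. In ACF the 2 strains overlapped, with a log2 fold change of 0.03 (SE 0.223, adjusted p = 0.935), or 0.35 (SE 0.211, adjusted p = 0.364) without replicate 489. Over both surgeries C3H_wt exceeded C57_wt by 0.41 (SE 0.159, adjusted p = 0.110) on the log2 scale with replicate 489. Without it the difference was 0.58 (SE 0.141) and passed the threshold with an edgeR adjusted p of 0.00726. In set B the wild types stood the other way round, with a log2 fold change of -0.26 (SE 0.145).

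Prkce, the new isoform linked to cardioprotection, followed the nuclear background in both sets. In set B it held 3.98 to 4.27 log2 CPM in C3Hn-C57mt (median 4.21) and 4.88 to 5.55 in C57_WT (median 5.36). All C3Hn-C57mt libraries lay below all C57_WT libraries. Prkce fell to 0.464 of its C57_WT level in C3Hn-C57mt, with a log2 fold change of -1.11 (SE 0.0974) and an edgeR adjusted p of 1.48e-09. C3H_WT, at 4.12 to 4.29 log2 CPM (median 4.25), was also below C57_WT, at a log2 fold change of -1.05 ± 0.0974 (SE) and an adjusted p of 3.75e-09 in edgeR. Between these wild types the mitochondria differ as well. Over C3H mitochondria on both sides, C3H_WT was below C57n-C3Hmt, at 5.28 to 5.59 log2 CPM (median 5.45), at a log2 fold change of -1.21 ± 0.0977 (SE) and an adjusted p of 2.9e-10 in edgeR.

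In set A the 12 libraries with C3H at the head of the title held 3.41 to 3.82 log2 CPM of Prkce, and the C57 libraries other than replicate 489 held 4.64 to 5.03. Replicate 489, at 3.05, was the lowest of the set. Without that library the title classes did not overlap. Prkce fell in C3H_wt relative to C57_wt, with a log2 fold change of -1.11 (SE 0.208; edgeR gave an adjusted p of 0.00105), or -1.29 (SE 0.0853, adjusted p = 7.49e-10) without replicate 489. In sham alone, where replicate 489 plays no part in the groups, it was -1.15 (SE 0.294; edgeR gave an adjusted p of 0.0285). In ACF it was -1.06 (SE 0.294, adjusted p = 0.0265) with replicate 489 and -1.46 (SE 0.126, adjusted p = 1.34e-07) without it. Between C3H_MNX and C57_MNX the log2 fold change was -1.17 (SE 0.208; edgeR gave an adjusted p of 0.000620), and all 6 C3H_MNX libraries lay below all 6 C57_MNX libraries. The genotype tags of these exchange libraries would place the higher Prkce level with the C3H nucleus.

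Prkcz, the atypical zeta isoform, stood the other way. It held 2.38 to 2.95 log2 CPM (median 2.54) in C3Hn-C57mt, 2.01 to 2.61 (median 2.43) in C3H_WT, 1.52 to 2.08 (median 1.73) in C57n-C3Hmt and 1.32 to 2.04 (median 1.53) in C57_WT. C3Hn-C57mt did not overlap with either C57-nucleus group, while the lowest C3H_WT library reached into both. Prkcz rose in C3Hn-C57mt relative to C57_WT by 0.98 on the log2 scale (SE 0.148; edgeR gave an adjusted p of 1.07e-05). C3H_WT was higher than C57_WT by 0.75 (SE 0.149; edgeR gave an adjusted p of 0.000448) and higher than C57n-C3Hmt by 0.64 (SE 0.150, adjusted p = 0.00259). With the L code as a covariate the values were 0.75 (adjusted p = 0.288) and 0.57 (adjusted p = 0.237), and neither passed. The cause was not tested.

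In set A the C3H_wt over C57_wt difference of Prkcz was 0.49 (SE 0.258; edgeR gave an adjusted p of 0.241) and did not pass. Replicate 489 held the highest Prkcz of the set, at 2.24 log2 CPM, against 0.06 to 1.60 in the other 23 libraries. Without it the difference was 0.90 (SE 0.192) and passed with an edgeR adjusted p of 0.00247. In sham the 3 C3H_wt libraries, at 1.19, 1.45 and 1.60, all lay above the 3 C57_wt libraries, at 0.29, 0.06 and 0.75, but the edgeR adjusted p was 0.148. Nothing is read from this separation, as its share over all genes is not given here.

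**Figure D4:**
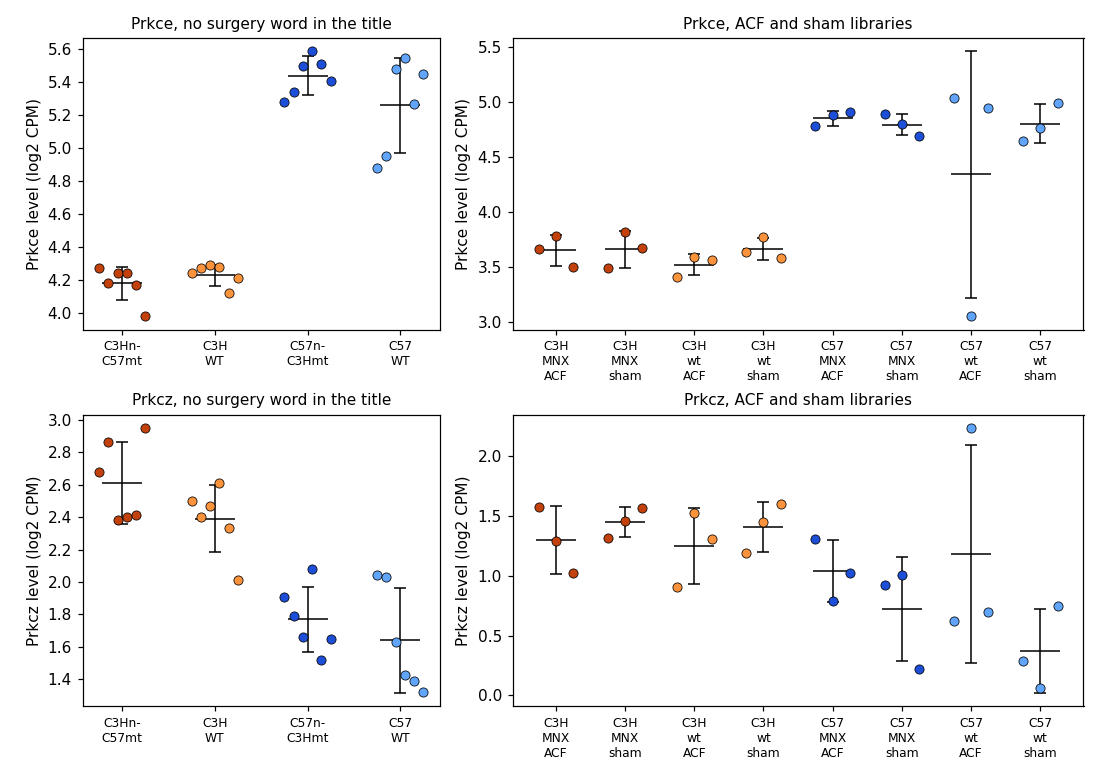
Levels of Prkce (top) and Prkcz (bottom) in log2 CPM on the vertical axes, by library, with the mean and SD as a bar, for set B (left) and set A (right). Prkce sits at 3.98 to 4.29 with the C3H nucleus and 4.88 to 5.59 with the C57 nucleus in set B, and the C57_wt ACF point at 3.05 is replicate 489.

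Among the other isoforms, 3 were lower in C3Hn-C57mt than in C57_WT. Prkcb held -1.13 to -0.08 log2 CPM in C3Hn-C57mt and 0.07 to 0.83 in C57_WT, without overlap, and fell by 1.11 on the log2 scale (log2 fold change -1.11, SE 0.257, edgeR adjusted p = 0.00169). Prkcd, which has been tied to cell death signalling, held 2.30 to 2.68 in C3Hn-C57mt and 2.54 to 3.29 in C57_WT (log2 fold change -0.39, SE 0.126, adjusted p = 0.0206). Prkch held 2.82 to 3.57 in C3Hn-C57mt and 3.16 to 4.20 in C57_WT (log2 fold change -0.48, SE 0.179, adjusted p = 0.0417). The ranges of Prkcd and Prkch overlapped between the groups. Prkcd was the single one of these to pass also between C3H_WT and C57_WT, with a log2 fold change of -0.38 (SE 0.126; edgeR gave an adjusted p of 0.0277).

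Markers of several other cell types had lower medians in C3Hn-C57mt than in C57_WT. Macrophage markers, 10 of 10 present, summed to 43.8 to 94.4 CPM in C3Hn-C57mt and 86.6 to 227 CPM in C57_WT, and platelet markers, 5 of 6 present, to 1.12 to 2.50 CPM in C3Hn-C57mt and 2.37 to 6.37 CPM in C57_WT. Fibroblast markers, all 7 present, summed to 168 to 301 CPM in C3Hn-C57mt and 215 to 447 CPM in C57_WT, and T cell markers, all 11 present, to 4.05 to 4.94 CPM in C3Hn-C57mt and 4.38 to 8.15 CPM in C57_WT. The ranges of all these lists overlapped, though the C3Hn-C57mt medians were the lower ones, at 59.3, 1.74, 226 and 4.48 CPM against 122, 3.33, 380 and 6.66 CPM in C57_WT. Of the platelet markers Gp6 was at 0 in both groups. Neutrophil and cardiomyocyte medians went the other way, at 0.795 and 74900 CPM in C3Hn-C57mt against 0.604 and 66700 CPM in C57_WT. The part of any cell type in the falls of Prkcb, Prkcd and Prkch was not tested.

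The calls of Prkcb, Prkcd and Prkch depended on the setting to different degrees. Prkcb passed in all 12 fits that leave out a library, with adjusted p-values of 0.00124 to 0.00641. None of the 3 passed with the L code as a covariate, where the adjusted p-values were 0.238, 0.608 and 0.860 and the Prkch difference turned to 0.12. Without C57_WT replicate 1 the Prkcd difference from C57_WT was -0.27 in C3Hn-C57mt (adjusted p = 0.0775) and -0.27 in C3H_WT (adjusted p = 0.106). The C3H_WT difference of Prkcd was also lost without C57_WT replicate 2 (adjusted p = 0.0539), C3H_WT replicate 20 (0.0630) or C3H_WT replicate 24 (0.0667). Prkch failed in 7 of the 12 fits that leave out a library, namely C3Hn-C57mt replicates 13, 14, 17 and 18 and C57_WT replicates 1, 3 and 4, with adjusted p-values up to 0.136. Prkca, Prkci and Prkd1 passed in no edgeR comparison fitted on all 24 libraries of a set.

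Counted over the members open to a test in set B, which leaves out Prkcq, C3Hn-C57mt against C57_WT called 1 of 8 higher and 4 of 8 lower, beside 31.9% of all 13395 genes called, 15.9% higher and 16.0% lower. C3H_WT against C57_WT called 1 of 8 higher and 2 of 8 lower, beside 22.6% of all genes, 12.0% higher and 10.7% lower. C3H_WT against C57n-C3Hmt called 1 higher and 1 lower of 8, beside 19.4% of all genes, 10.6% higher and 8.78% lower. These 3 comparisons share libraries and are not separate evidence. In set A, C3H_wt against C57_wt called 1 of 9 members lower, beside 11.1% of 13440 genes called and 6.09% called lower. C3H_MNX against C57_MNX also called 1 of 9 lower, beside 10.1% called and 4.84% called lower. Without replicate 489, C3H_wt against C57_wt called 2 of 9 members higher and 1 lower, beside 14.2% of 13544 genes. The median log2 fold change of the 9 members was -0.23 between C3Hn-C57mt and C57_WT, against 0.007 over all genes, and -0.14 between C3H_wt and C57_wt, against -0.028 over all genes. Without replicate 489 the C3H_wt and C57_wt median was 0.09, against 0.025 over all genes, so its sign turned.

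**Figure D5:**
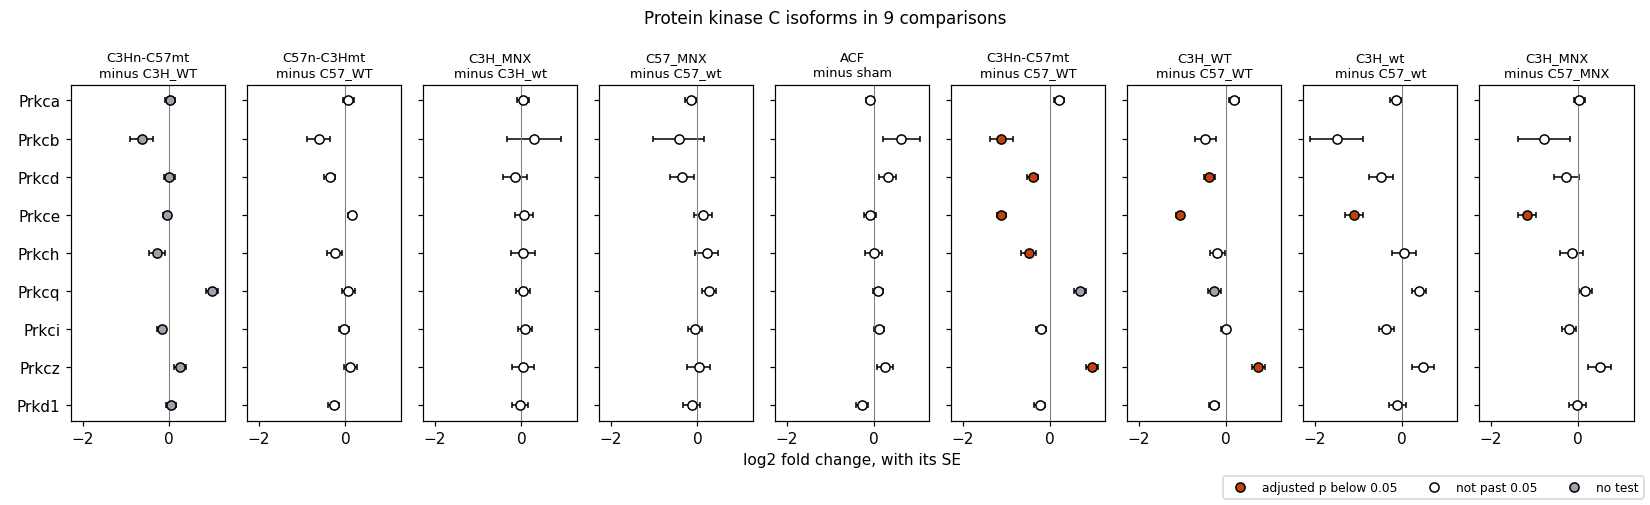
Log2 fold change of the 9 members with its SE (horizontal axes) in 9 comparisons, the first group of each title over the second; filled points passed an edgeR adjusted p of 0.05, open points did not and grey points carry no test. Prkce is filled in the 4 comparisons of nuclear backgrounds at the right, at -1.17 to -1.05, and no member is filled in the exchange comparisons with a test or in ACF minus sham. Of these 4, only C3Hn-C57mt minus C57_WT holds the mitochondria constant, and in the others nucleus and mitochondria differ together.

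ACF surgery moved no isoform past the threshold. Averaged over the 4 title groups, 0 of 9 members passed between ACF and sham, 0 had an unadjusted p under 0.05 (11.3% of all genes did), and edgeR called 0.275% of all 13440 genes. DESeq2 called 0 of the members and 241 genes. Prkcq differed by 0.10 on the log2 scale (SE 0.112; edgeR gave an adjusted p of 0.829) and Prkce by -0.08 (SE 0.146, adjusted p = 0.896). Without replicate 489 the values were 0.02 (SE 0.0962) for Prkcq and 0.03 (SE 0.0590) for Prkce, and 0.923% of 13544 genes were called.

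Prkd1 gave the largest negative average among the members, with a log2 fold change of -0.27 in ACF over sham (SE 0.136; edgeR gave an adjusted p of 0.459), and -0.38 (SE 0.112, adjusted p = 0.123) without replicate 489. The C57_MNX ACF libraries held 1.31, 1.41 and 1.43 log2 CPM of Prkd1 and the C57_MNX sham libraries 1.77, 1.48 and 2.43, so these groups did not overlap. The C3H_wt ACF libraries held 1.40, 1.68 and 1.34 and the C3H_wt sham libraries 2.10, 1.65 and 1.92, which overlapped. The C57_wt ACF libraries held 1.17, 2.29 and 1.39 and the C57_wt sham libraries 1.83, 2.18 and 1.58, where 2.29 was replicate 489. The C57_wt log2 fold change was -0.20 with that library and -0.61 (SE 0.246, edgeR adjusted p = 1.00) without it, when ACF lay below sham in every library. How many of all genes separate as Prkd1 did in C57_MNX or C57_wt is not given here. Nothing is read from these separations. In C3H_MNX, ACF and sham differed by 0.11 (SE 0.269; edgeR gave an adjusted p of 1.00).

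Within the title groups 0 of 9 members passed between ACF and sham in any of the 4, where edgeR called 0.00744% of genes in C3H_MNX and 0% in the other groups. Unadjusted p-values under 0.05 were found for 0 members in C3H_MNX and C3H_wt, 1 in C57_MNX and 2 in C57_wt, beside 1.71%, 7.08%, 2.04% and 15.1% of all genes. DESeq2 called no member in any of the 4. Over the whole table DESeq2 called 3 genes in C3H_MNX, 76 in C3H_wt, 1 in C57_MNX and 139 in C57_wt. The C57_MNX member was Prkd1 (log2 fold change -0.58, SE 0.278), and the C57_wt members were Prkcd (1.05, SE 0.399) and Prkcz (1.05, SE 0.374). The C57_wt values rest on replicate 489: its Prkcd was 4.33 log2 CPM, against 2.11 and 2.26 in the other C57_wt ACF libraries and 2.27, 2.21 and 2.25 in C57_wt sham. Without it they were -0.04 (SE 0.213) for Prkcd and 0.31 (SE 0.297) for Prkcz, with an edgeR adjusted p of 1.00 for both.

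The 1.68 log2 CPM of Prkcb and 3.71 of Prkci in C3H_MNX ACF replicate 6756 were the highest of set A but for replicate 489. Replicate 489 was the highest library of set A for Prkcb, at 3.37 log2 CPM against -1.69 to 1.68 in the others, and for Prkci, at 4.06 against 2.74 to 3.71. Its B cell markers summed to 10.9 CPM, against 0.0547 to 1.27 CPM in the other set A libraries, and its T cell markers to 9.32 CPM, against 2.58 to 7.06 CPM. Its platelet markers summed to 312 CPM, against 0.452 to 50.5 CPM, and its fibroblast markers to 2040 CPM, against 188 to 1030 CPM. The part of these cell types in the isoform levels of replicate 489 was not tested.

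The response of Prkcq to ACF was compared between genotypes directly. The ACF minus sham difference was -0.36 (SE 0.221) in C3H_wt and 0.31 (SE 0.228) in C57_MNX. All 3 ACF libraries lay below all 3 sham libraries in C3H_wt and above them in C57_MNX. The share of all genes separated in this way is not given here, so nothing is read from it. The difference was 0.05 (SE 0.220) in C3H_MNX and 0.39 (SE 0.227) in C57_wt, or 0.10 (SE 0.214) in C57_wt without replicate 489. The C3H_wt minus C57_wt difference of these responses was -0.75 on the log2 scale (SE 0.317; edgeR gave an adjusted p of 0.475), or -0.47 (SE 0.281, adjusted p = 0.916) without replicate 489. Between C3H_MNX and C3H_wt the responses differed by 0.41 (SE 0.312; edgeR gave an adjusted p of 0.960), and between C57_MNX and C57_wt by -0.07 (SE 0.321, adjusted p = 0.930). Without replicate 489 the C57_MNX and C57_wt difference turned to 0.23 (SE 0.288), with an edgeR adjusted p of 1.00. None of the 9 members passed in these 3 comparisons, in which edgeR called 0% of genes and DESeq2 called 3, 1 and 0. Prkcq and Prkcz had an unadjusted p under 0.05 in the first and no member did in the other two, beside 10.1%, 2.96% and 5.76% of all genes.

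Genes that surround the family in its pathway were read from 8 lists of 88 genes, of which 86 are in the file and 77 were tested in set B and 75 in set A. Between C3Hn-C57mt and C57_WT, 10 of the 77 were higher and 14 lower by the edgeR test, beside 15.9% of all genes higher and 16.0% lower. Between C3H_WT and C57_WT, 7 were higher and 9 lower, beside 12.0% and 10.7% of all genes. These shares were near those of all genes. Between C57n-C3Hmt and C57_WT, 0 passed, beside 0% of all genes. In set A, 3 of 75 were higher and 3 lower between C3H_wt and C57_wt, beside 11.1% of all genes called, and 5 were higher and 7 lower without replicate 489, beside 14.2%. In set A 0 passed in either exchange comparison, beside 0.0223% of all genes for C3H titles and 0% for C57 titles. In ACF 1 was higher, beside 0.275% of all genes called, or 2 without replicate 489, beside 0.923%. The counts by list that follow are to be read against the 15.9% and 16.0% of C3Hn-C57mt over C57_WT.

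Of the receptors and G proteins that feed the pathway, 1 of 9 rose and 2 fell in C3Hn-C57mt relative to C57_WT, with a list median of -0.21 against 0.007 over all genes. Ednra, the endothelin receptor type A, rose by 0.83 on the log2 scale in C3Hn-C57mt (SE 0.179; edgeR gave an adjusted p of 0.000813). It was higher in C3H_WT than in C57_WT by 1.03 (SE 0.179) and in C3H_wt than in C57_wt by 0.99 (SE 0.226, adjusted p = 0.00576). Agtr1a, the angiotensin II type 1a receptor, fell by 0.55 in C3Hn-C57mt (log2 fold change -0.55, SE 0.119, adjusted p = 0.000822), and so did Ednrb, the endothelin receptor type B, with a log2 fold change of -0.77 (SE 0.216, adjusted p = 0.00741). In C3H_WT against C57_WT, Agtr1a also passed (log2 fold change -0.61, edgeR adjusted p = 0.000355) and Ednrb did not (-0.12, adjusted p = 0.760).

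Phospholipases C make the diacylglycerol that activates the conventional and new isoforms, and diacylglycerol kinases remove it. Of 9 phospholipase C genes, Plcg2 rose in C3Hn-C57mt over C57_WT by 0.66 (SE 0.110; edgeR gave an adjusted p of 4.39e-05) and Plcb1 fell (log2 fold change -0.63, SE 0.216, adjusted p = 0.0278). Of 6 diacylglycerol kinases, 3 fell and none rose: Dgke (-0.77, SE 0.143), Dgka (-0.40, SE 0.0896) and Dgkq (-0.51, SE 0.118), with edgeR adjusted p-values of 0.000160, 0.00113 and 0.00164. The list median was -0.46, against 0.007 over all genes. Of these genes, Plcg2, Dgke and Dgka passed in the same direction between C3H_WT and C57_WT, with log2 fold changes of 0.51, -0.79 and -0.39. Plcb1 (-0.12, edgeR adjusted p = 0.768) and Dgkq (-0.22, adjusted p = 0.198) did not pass there. With replicate 489 included, Plcd3 was the one listed gene that passed in ACF over sham, higher by 0.36 (SE 0.0707; edgeR gave an adjusted p of 0.0339). Without replicate 489, Plcd3 (0.37, SE 0.0705, edgeR adjusted p = 0.0149) and Ednra (0.52, SE 0.101, adjusted p = 0.0160) both passed.

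Anchoring proteins hold isoforms at their place in the cell, and 4 of 14 rose and 2 fell in C3Hn-C57mt relative to C57_WT, with a list median of 0.12. Pdlim5, a Z-disc protein that binds protein kinases C, rose by 0.72 (SE 0.0925; edgeR gave an adjusted p of 1.06e-06), and was higher in C3H_wt than in C57_wt by 0.89 (SE 0.280, adjusted p = 0.0455). Ldb3, another Z-disc PDZ and LIM protein, rose by 0.44 (SE 0.0966, adjusted p = 0.000883), and Akap5, a scaffold for kinases A and C, fell (log2 fold change -0.85, SE 0.278, adjusted p = 0.0209). Between C3H_WT and C57_WT, Pdlim5 (0.53) and Akap5 (-0.77) passed, and Ldb3 did not (0.22, edgeR adjusted p = 0.113). Of 19 substrates 3 rose and none fell, among them Mybpc3, cardiac myosin binding protein C, by 0.67 (SE 0.115, adjusted p = 5.82e-05). Of 10 genes for maturation and turnover, Hsp90aa1 rose and Rnf31 fell.

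Related kinases were lower where they passed. Of 6 tested, 4 fell in C3Hn-C57mt relative to C57_WT and none rose, among them Prkd3, a protein kinase D (log2 fold change -0.37, SE 0.109), and Pkn3 (-0.56, SE 0.193). Between C3H_WT and C57_WT 2 of the 6 were lower, and neither Prkd3 (-0.25, edgeR adjusted p = 0.113) nor Pkn3 (-0.28, adjusted p = 0.351) passed. Of the T cell partners of the theta isoform, 4 of 8 were abundant enough to test. The co-receptor Cd28 fell in C3Hn-C57mt (log2 fold change -0.68, SE 0.140, edgeR adjusted p = 0.000520), opposite in sign to the 0.71 of Prkcq in the same contrast.

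Across the 24 libraries of set B, the genes whose log2 CPM ran most like that of Prkcq, among 8813 considered, were Ift88 (Pearson r = 0.79), Gtf2h2 (0.78), Iqcc (0.78), Trim35 (0.78) and Tbce (0.76). Those that ran most opposite were Ptpn12 (-0.82), Nadk (-0.80), Rnf145 (-0.76), Crebzf (-0.74) and Gda (-0.73). The level of Gtf2h2, a subunit of general transcription factor IIH, averaged 3.48 log2 CPM in C3Hn-C57mt, 3.16 in C3H_WT, 3.15 in C57n-C3Hmt and 3.07 in C57_WT. These correlations are a description over libraries that share their groups and depth. Over the 24 libraries of set A the same 10 genes had correlations with Prkcq of -0.26 to 0.31.

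Among the isoforms themselves, Prkcq ran most closely with Prkcz in set A, with r = 0.77 over 24 libraries and 0.76 without replicate 489, and less so in set B, with r = 0.31. In set B its lowest correlation was with Prkci, at -0.59. These libraries share their title groups as well.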

How the data were processed

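Polyadenylated RNA of collagenase-isolated cardiomyocytes was sequenced on an Illumina HiSeq instrument, per the labels' protocols. Expected counts from RSEM, 1 row for each gene symbol, are what the authors deposited, without normalization. Per the submitters' processing notes the build was mm9 and the tools were RSEM 1.2.0, Bowtie and CASAVA 1.8.2, while the extract protocol in the labels names the provider's own mapping algorithm, and which made the table is not settled. Of the deposited values, 13.9% were not whole. The mapping of C3H reads to a C57BL/6J reference could lower counts where C3H sequence differs, which was not tested.

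Counts were rounded and analysed in R 4.3.3 with edgeR 4.0.16: TMM, the filter on low counts by group, the quasi-likelihood F test and Benjamini-Hochberg adjustment over all genes, at a threshold of 0.05. Each set of 24 libraries was fitted as 1 model of group means, and a prior count of 2 was added for log2 CPM levels. A standard error is the log2 fold change divided by the square root of F. Groups came from the titles, no replicate number was shared between groups, and no pair of libraries of a group agreed within sampling noise (lowest chi-square per degree of freedom 3.858). The fit was tested on simulated data.

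The members, the pathway and marker lists, and the rule for genes most like Prkcq (highest and lowest 5 by Pearson r, mean log2 CPM of at least 2) were chosen with earlier results of these data known. The alternatives were the DESeq2 1.42.0 test, edgeR with DESeq2's size factors, leaving out the filter or each library, other sets of libraries and the L code. The comparisons C3H_WT with C57n-C3Hmt, C3H_MNX with C57_MNX and the wild types' ACF responses, and member and pathway values without replicate 489, were added after seeing the data. Coding sequences and coordinates are of GRCm38, not mm9. Protein sequences were not used here. Some genes and sequences are not reported here.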

Additional observations from a re-analysis of the deposited data

Results flagged for a closer look

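Of the 36 combinations of a member with a set B group, 3 held a library far from its group by Dixon's criterion, which chance alone meets in about 1 of 20 groups. Prkce in C3Hn-C57mt replicate 18 was 3.98 log2 CPM, with the nearest library at 4.17. Prkd1 in C3Hn-C57mt replicate 15 was 2.06 log2 CPM, with the nearest at 2.30. Prkd1 in C3H_WT replicate 22 was 1.52 log2 CPM, with the nearest at 2.27. The same library, C3H_WT replicate 22, held the lowest Prkcq of set B, at 1.83 log2 CPM.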

How the results depend on the processing

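The nuclear differences of Prkce kept their direction and their side of the threshold under every setting tried. The rise of Prkcq in C3Hn-C57mt over C3H_WT also kept its direction. That contrast chose Prkcq and its libraries did not overlap there, so nothing is read from this. The members called between C3Hn-C57mt and C57_WT, 5 in the fit reported, were 2 with all 48 libraries in 1 model and 2 with the L code as a covariate, where Prkch turned to 0.12. Between C3H_WT and C57_WT (3 as reported) and between C3H_WT and C57n-C3Hmt (2 as reported), 1 was called with the L code. Between C3H_wt and C57_wt (1 as reported), 3 were called with all 48 libraries, 3 without library 489 and 3 without libraries 489 and 6756. Between C3H_MNX and C57_MNX (1 as reported), 2 were called without library 489 and 3 without both. For most of these settings the share of all genes called is not given here. A changed count is therefore not read as a result about the members. The cause was not tested.

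Leaving out each library in turn gave 3 to 6 members between C3Hn-C57mt and C57_WT (3 without C57_WT replicate 1) and 1 to 3 between C3H_wt and C57_wt (3 without replicate 489, 2 without C57_wt ACF replicate 465). Nothing is read from these counts either, for the same reason. Prkcq between C3H_MNX and C3H_wt ran from -0.05 to 0.10, and changed sign without C3H_wt ACF replicate 470 (-0.05), C3H_MNX ACF replicate 6650 (-0.02) or C3H_MNX sham replicate 6652 (-0.01). No paired analysis was possible because no replicate number was shared between groups. Depth limits Prkcb most, with 4 counts in its lowest library.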
